A study of Homo sapiens with 12 samples.

Results

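The transcripts of 57 genes of the mitotic spindle and of chromosome segregation were measured by RNA sequencing in the human kidney cancer line 786-O, an established cell line. The genes encode mitotic kinases and cyclins, kinesins, kinetochore and spindle proteins, checkpoint proteins and condensin subunits, and were found by symbol among the 17085 genes of the count table. All 57 were present, and all 57 were among the 12841 genes with enough counts to be tested, the lowest count of any of them in any library being 432. The cells, labelled as wild type, spent 24 h in the vehicle dimethylsulfoxide (DMSO), in 5 µM everolimus, which inhibits the growth kinase mTOR, in 1.5 µM SGI-1027, which inhibits the enzymes that methylate DNA, or in the pair of drugs, which makes 4 groups of 3 libraries. The study asked whether the drugs act together on renal cancer cells, so each treated group was compared with DMSO and the combination group with each single drug. The sample records give 5 µM for the everolimus libraries, but their protocol gives 10 µM for everolimus alone and 5 µM within the combination. The methods of the study also give 5 µM, but if the group received 10 µM the everolimus doses were not matched between the everolimus and combination groups. A single cell line, dose and time point was sequenced, and whether separate cultures were used for the 3 libraries in each group is not recorded, so the p values measure the spread between these libraries, which may be technical.

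Cells enter mitosis when cyclin B1 activates the kinase CDK1, and Aurora and Polo-like kinases then drive centrosome separation, spindle assembly and chromosome alignment. Kinetochores on the centromeres attach chromosomes to spindle microtubules, and the spindle checkpoint holds back the anaphase-promoting complex (APC/C) until all are attached. Once CDC20 activates the APC/C, securin and cyclin B1 are destroyed, sister chromatids separate, and kinesins and the central spindle guide cytokinesis. Many of these genes are transcribed mainly in G2 and mitosis, through FOXM1, B-MYB and the MuvB complex, and are repressed in resting cells by the DREAM complex. Their RNA in a bulk sample therefore follows the share of cells in G2 and mitosis as well as the RNA per cell. Fewer such cells and less RNA per cell cannot be told apart in these libraries. The study measured the cell cycle of this line by flow cytometry, at the doses and time its methods give for sequencing. It reported G0/G1 arrest with everolimus, no significant effect of SGI-1027, and more arrest with the combination than with everolimus. The mitotic genes had a median log2 fold change of -0.41 for everolimus, -0.81 for SGI-1027 and -0.91 for both drugs. The reported G0/G1 arrest does not give the share of cells in G2 and mitosis. Whether that share explains these falls in RNA was not tested.

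Promoters of such genes often carry a CHR element, a short motif bound by MuvB complexes, downstream of CCAAT boxes, which bind the factor NF-Y. The letters TTTGAA or TTCGAA (CHR) and CCAAT were searched on both strands in RefSeq windows (GRCh38.p14) from 250 bases before to 50 bases after each gene's start. Of the 57 genes, 47 had a window in the table, and AURKA, BIRC5, BUB3, TTK, UBE2C, FAM83D, TPX2, RACGAP1, CDCA2 and FOXM1 had no entry. A CHR was found in 34 of the 47 windows (72.3%), compared to 16.6% of the 27305 promoters of the table, and a CCAAT box in 35 (74.5%), compared to 35.7%. Both motifs, in whatever order, were found in 28 windows (59.6%), compared to 6.58% of all promoters. The 5 windows below hold both motifs and belong to genes that responded to different degrees. PLK1, CCNB2 and PRC1 fell with each treatment, and KIF18A and HMMR changed least within their groups of genes under the combination. Each window is the 150 bases that end just before the start, written 5′ to 3′ along the gene. Matches to the motifs of either strand are in capitals. In all 5 the CHR lies nearest to the start. Other windows of the 28 differ, with a CCAAT match nearer to the start than any CHR match. Over the full windows, these are CDK1, CDCA8, CDC20, CENPF, GTSE1, ECT2, NCAPD2, TOP2A and MKI67. In HMMR, 2 CHR matches lie side by side, and 1 run of capitals joins overlapping matches to CCAAT on both strands.

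PLK1: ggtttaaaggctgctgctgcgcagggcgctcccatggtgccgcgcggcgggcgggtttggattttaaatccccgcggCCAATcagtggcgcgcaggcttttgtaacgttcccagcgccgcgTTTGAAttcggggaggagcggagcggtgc
CCNB2: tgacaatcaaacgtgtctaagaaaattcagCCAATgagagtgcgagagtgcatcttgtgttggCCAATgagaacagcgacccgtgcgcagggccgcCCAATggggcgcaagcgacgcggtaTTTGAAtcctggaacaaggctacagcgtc
PRC1: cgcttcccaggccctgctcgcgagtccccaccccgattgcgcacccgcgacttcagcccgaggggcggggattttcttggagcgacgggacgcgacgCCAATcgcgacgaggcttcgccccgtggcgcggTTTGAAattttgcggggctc
KIF18A: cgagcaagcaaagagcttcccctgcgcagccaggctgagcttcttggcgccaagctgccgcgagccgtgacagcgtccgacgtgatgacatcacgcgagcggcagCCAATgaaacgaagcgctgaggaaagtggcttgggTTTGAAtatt
HMMR: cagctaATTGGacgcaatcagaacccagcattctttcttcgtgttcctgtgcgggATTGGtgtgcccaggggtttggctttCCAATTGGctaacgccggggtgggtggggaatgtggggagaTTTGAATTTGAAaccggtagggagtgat

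These windows lie at chr16:23678739-23678888, plus strand (PLK1), chr15:59104996-59105145, plus strand (CCNB2), chr15:90994536-90994685, minus strand (PRC1), chr11:28108157-28108306, minus strand (KIF18A) and chr5:163460482-163460631, plus strand (HMMR), upstream of the first exon as RefSeq places the start. They hold 1, 1, 1, 1 and 2 CHR matches, and 1, 3, 1, 1 and 4 CCAAT matches. Genes with and without a CHR match in the window had similar medians. Compared to DMSO, the combination gave a median log2 fold change of -0.91 over the 34 genes with a match (range -1.45 to -0.30). It was -0.99 over the 13 genes without one (-1.68 to -0.38), a difference that was not tested. Variant motifs and elements outside the window were not searched, so the split does not show which genes lack a CHR. KIF20A, the gene that fell most, had no CHR match in its window and 2 CCAAT matches.

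Total counts ranged from 37046231 to 41516976 per library and TMM factors, which scale libraries for composition, from 0.99 to 1.012. Libraries of the same group differed by more than counting noise in each of the 12 pairs, and DMSO replicate 1 and SGI-1027 replicate 3 stood farther from their group than the others did, with a mean chi-square per gene of 10.4 to 16.5 in their 4 pairs compared to 3.05 to 5.54 in the other 8. The labelled cell type was checked against its markers. PAX8, a transcription factor of kidney lineage, was at a median of 93.6 FPKM (fragments scaled by gene length and library size), and KRT8, KRT18 and VIM at 554, 254 and 3282, whereas CA9 had at most 32 counts and LRP2 at most 1 count in any library. The summed FPKM of the immune, endothelial, fibroblast and erythroid markers was at most 0.273, 0.105, 1.79 and 0.0584 in any library.

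Compared to DMSO, the mitotic genes were lower in each treated group, least with everolimus and most with the combination. They took 1.01% ± 0.0118 (SD, n = 3) of all counts in the DMSO group, 0.761% ± 0.0113 after everolimus, 0.580% ± 0.00574 after SGI-1027 and 0.544% ± 0.00211 after both, with no overlap between the libraries of any 2 groups. Everolimus lowered 48 of the 57 (84.2%), while 29.2% of all tested genes were lower, and raised 1, while 27.2% of all genes were higher (edgeR quasi-likelihood test, p under 0.05 after Benjamini-Hochberg adjustment over the 12841 genes). SGI-1027 lowered 56 (98.2%) and raised 0, with 30.6% and 32% of all genes called in these directions. The combination lowered all 57 and raised 0, with 33.4% and 32.8% of all genes called. Their median log2 fold change was -0.41 for everolimus, -0.81 for SGI-1027 and -0.91 for both drugs, where the median over all genes tested was 0.0013 for everolimus, 0.017 for SGI-1027 and 0.0074 for both drugs. With SGI-1027 and with the combination the log2 fold change of every one of the 57 was below 0, so that no gene was higher at an unadjusted p either. These 3 comparisons share the DMSO libraries.

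**Figure D1:**
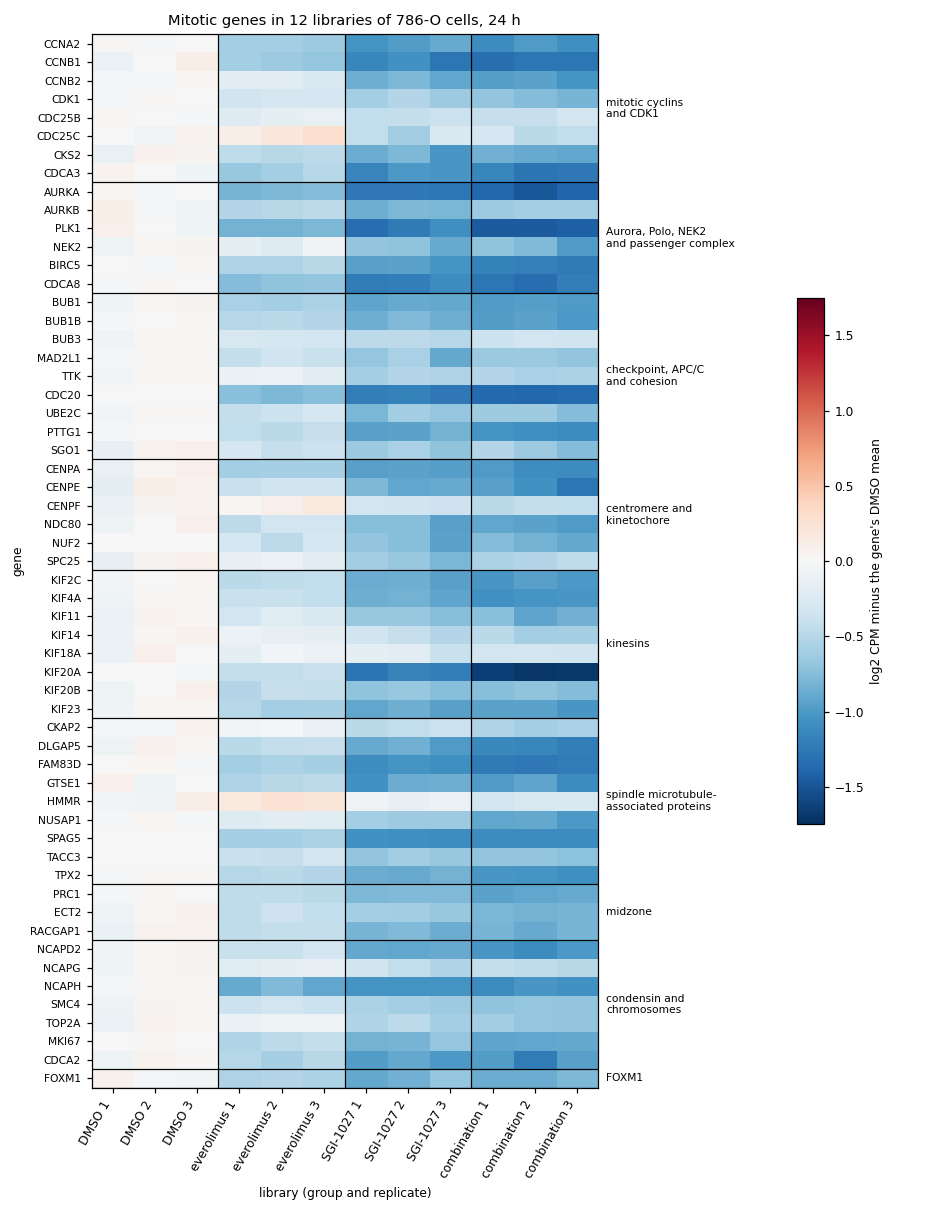
Rows are the 57 mitotic genes by role and columns the 12 libraries, and the colour gives the log2 CPM minus the gene's mean over the DMSO libraries. The median over the genes was between -0.44 and -0.41 in the everolimus libraries, -0.86 and -0.78 in the SGI-1027 libraries and -0.95 and -0.91 in the combination libraries, with CDC25C, CENPF and HMMR the rows above 0 in the everolimus group.

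The group means of 46 genes fell in the order DMSO, everolimus, SGI-1027, combination, and the combination mean was the lowest of the 4 for 48 genes and the SGI-1027 mean for 9. These 9 were CDC25B, CDC25C, CKS2, AURKB, BUB3, MAD2L1, UBE2C, SGO1 and SPC25, of which AURKB and BUB3 differed between the combination and SGI-1027 groups beyond the spread of the libraries. Fold changes were moderate. At the study's own cut-off (unadjusted p under 0.05 and a change of at least 1 on the log2 scale), everolimus lowered 0 of the genes, SGI-1027 lowered 10 and the combination lowered 21, against 0.903%, 1.07% and 2.71% of all genes, and none was higher, against 3.89%, 6.25% and 7.25%. The 21 were KIF20A, PLK1, AURKA, CDC20, CCNB1, CDCA8, FAM83D, CDCA3, BIRC5, DLGAP5, SPAG5, CENPE, CENPA, PTTG1, NCAPH, CCNA2, CDCA2, TPX2, NCAPD2, KIF4A and GTSE1. DMSO replicate 1 bore on the smallest changes: without it everolimus lowered 53 genes in place of 48, while the counts for SGI-1027 and the combination stayed at 56 and 57.

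**Figure D2:**
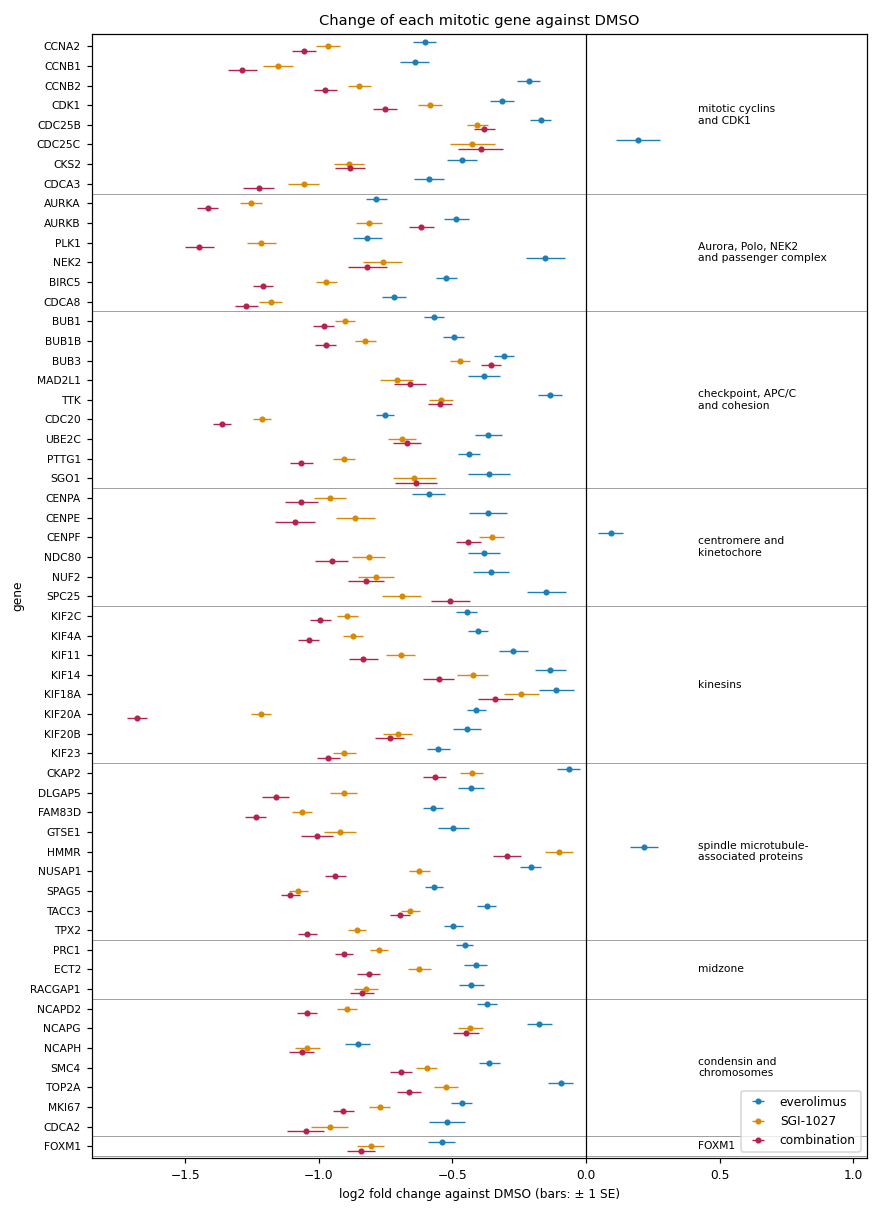
Each row is a gene, and points with bars give its log2 fold change against DMSO ± 1 SE for the everolimus, SGI-1027 and combination groups. Everolimus changes lie between -0.85 and 0.22, SGI-1027 changes between -1.25 and -0.10, and combination changes between -1.68 and -0.30.

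Mitotic cyclins, CDK1 and its regulators were lower with each drug. Of these 8 genes everolimus lowered 7, and SGI-1027 and the combination lowered all 8, with medians of -0.39 for everolimus, -0.87 for SGI-1027 and -0.93 for both drugs. CCNB1, cyclin B1, changed most. Its level, in CPM, counts scaled to equal library size, was 154, 164 and 179 in the DMSO libraries, 109, 107 and 103 in the everolimus libraries, 75.2, 79.5 and 68.8 in the SGI-1027 libraries and 66.5, 68.8 and 68.6 in the combination libraries. All treated libraries lay below the DMSO libraries, those of the SGI-1027 and combination groups overlapped, and the change was -0.64 ± 0.055 (SE) for everolimus, -1.15 ± 0.056 for SGI-1027 and -1.29 ± 0.056 for both drugs on the log2 scale (edgeR, Benjamini-Hochberg adjusted p = 2.27e-08, 8.06e-12 and 9.82e-13). CCNB2, cyclin B2, moved less with everolimus than CCNB1 did. Its CPM was 132, 132 and 137 in the DMSO libraries, 118, 117 and 111 in the everolimus libraries, 73.8, 77.6 and 71.5 in the SGI-1027 libraries and 68.4, 70.0 and 65.6 in the combination libraries. The groups did not overlap, and its log2 fold change was -0.21 ± 0.043 (SE) for everolimus, -0.85 ± 0.043 for SGI-1027 and -0.98 ± 0.043 for both drugs. CDK1, the kinase itself, had a CPM of 94.0, 97.1 and 94.9 in the DMSO libraries, 74.7, 77.8 and 77.5 in the everolimus libraries, 62.9, 66.7 and 61.3 in the SGI-1027 libraries and 58.9, 56.6 and 54.4 in the combination libraries. The libraries of the 4 groups did not overlap, and CDK1 fell by 19.6%, 33.2% and 40.6% in the same order. CDC25B, a phosphatase that starts CDK1 activation, changed least, with a CPM of 209.5, 204 and 199 in the DMSO libraries, 175, 183 and 187 in the everolimus libraries, 152, 154 and 157 in the SGI-1027 libraries and 154, 154 and 163 in the combination libraries. Its SGI-1027 and combination libraries overlapped, at log2 fold changes of -0.41 ± 0.039 and -0.38 ± 0.039. Among the rest, CCNA2 (cyclin A2), CKS2, a small subunit of CDKs, and CDCA3, a mitotic entry factor, lay between -0.88 and -1.22 in the combination group, and CDC25C, a phosphatase that amplifies CDK1 activation, was at 0.19 ± 0.081 with everolimus (adjusted p = 0.0511, edgeR) and at -0.39 ± 0.084 with the combination.

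Aurora A, PLK1 and the chromosomal passenger complex showed the lowest medians of the groups of genes, at -0.62 for everolimus, -1.08 for SGI-1027 and -1.24 for both drugs. SGI-1027 and the combination lowered all 6, and everolimus lowered 5. PLK1, the Polo-like kinase of the spindle, had a CPM of 329, 307 and 294 in the DMSO libraries, 174, 174 and 179 in the everolimus libraries, 122, 131 and 147 in the SGI-1027 libraries and 113, 113 and 115 in the combination libraries. The libraries of the 4 groups did not overlap, and the log2 fold change was -0.82 ± 0.054 (SE) for everolimus, -1.22 ± 0.054 for SGI-1027 and -1.45 ± 0.054 for both drugs (edgeR, adjusted p = 7.04e-10, 2.70e-12 and 1.34e-13). AURKA, the Aurora kinase of centrosomes and spindle poles, had a CPM of 163, 157 and 159 in the DMSO libraries, 90.6, 92.8 and 94.1 in the everolimus libraries, 67.3, 67.2 and 66.1 in the SGI-1027 libraries and 61.5, 57.1 and 60.8 in the combination libraries. Its changes were close to those of PLK1, at -0.79 ± 0.04 (SE) for everolimus, -1.25 ± 0.04 for SGI-1027 and -1.42 ± 0.04 for both drugs. AURKB is the kinase of the passenger complex, which corrects faulty attachments of chromosomes to the spindle. Its CPM was 104, 95.7 and 91.7 in the DMSO libraries, 68.2, 69.3 and 70.9 in the everolimus libraries, 53.7, 56.5 and 55.9 in the SGI-1027 libraries and 62.6, 64.1 and 63.6 in the combination libraries, so that the combination libraries lay above the SGI-1027 libraries and below the everolimus libraries. For its partners CDCA8 and BIRC5 the combination mean was the lowest. CDCA8, borealin, had a CPM of 157, 160.1 and 158 in the DMSO libraries, 93.7, 97.3 and 97.6 in the everolimus libraries, 67.8, 68.3 and 73.4 in the SGI-1027 libraries and 65.6, 62.7 and 68.4 in the combination libraries. Its SGI-1027 and combination libraries overlapped. It fell by 39.2%, 55.9% and 58.6% with everolimus, SGI-1027 and the combination, and BIRC5, survivin, by 30.4%, 49.0% and 56.7%, compared to 28.6%, 43.0% and 34.8% for AURKB. NEK2, a kinase of centrosome separation, was at -0.15 ± 0.072 with everolimus (adjusted p = 0.079, edgeR) and changed by -0.76 ± 0.073 with SGI-1027 and -0.82 ± 0.073 with the combination.

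**Figure D3:**
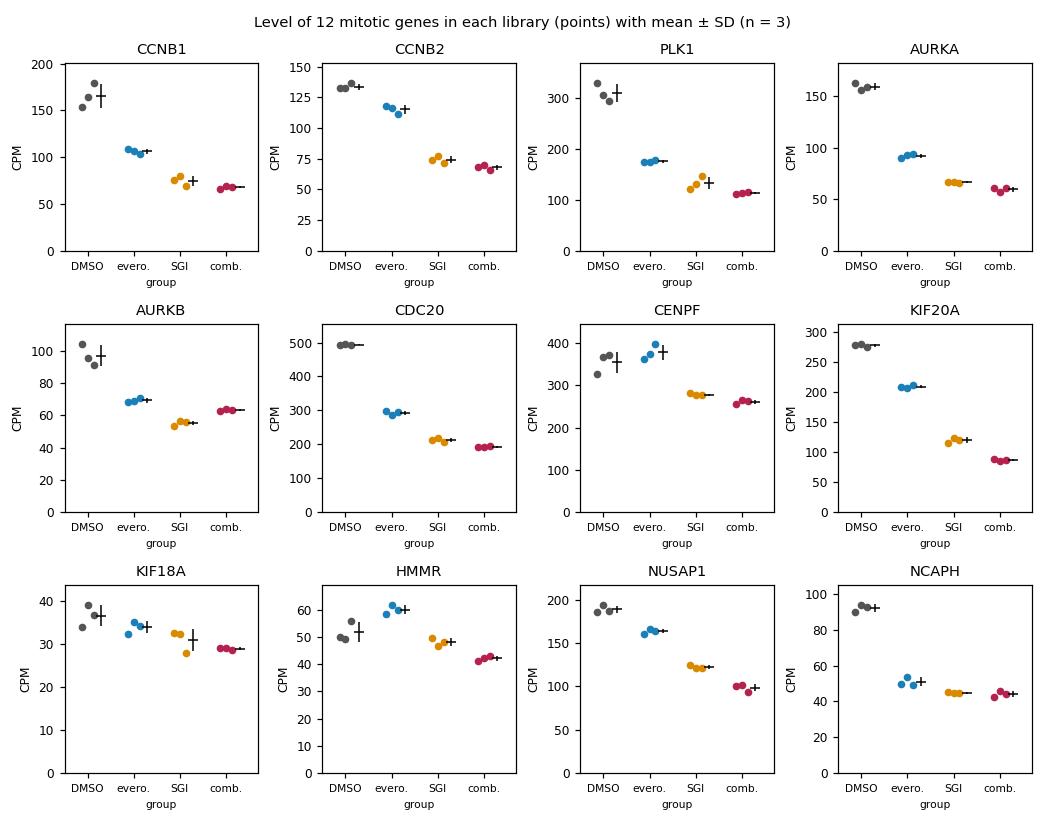
Each panel shows the CPM of a gene in the 12 libraries (points) with the mean ± SD of each group (n = 3), and each CPM axis starts at 0. In most panels the level steps down from DMSO through everolimus and SGI-1027 to the combination, while AURKB is higher in the combination group than in the SGI-1027 group, and CENPF and HMMR have their highest mean in the everolimus group.

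Genes of the spindle checkpoint, the APC/C and sister cohesion were lower with every treatment, 9 of 9 in each group, with medians of -0.38 for everolimus, -0.71 for SGI-1027 and -0.67 for both drugs. The shares of all tested genes that were lower were 29.2%, 30.6% and 33.4% in the same order. CDC20, which activates the APC/C at anaphase, changed most, with no overlap between groups. Its CPM was 492, 495 and 493 in the DMSO libraries, 297, 287 and 294 in the everolimus libraries, 213, 218 and 208 in the SGI-1027 libraries and 191, 191 and 194 in the combination libraries. It fell by 40.6%, 56.9% and 61.1% (edgeR, adjusted p = 6.14e-12, 6.54e-15 and 6.85e-16). BUB3, a subunit of the mitotic checkpoint complex, changed least of the 9 in the combination group, with a CPM of 187, 200.1 and 198 in the DMSO libraries, 161, 157 and 155 in the everolimus libraries, 142, 142 and 137 in the SGI-1027 libraries and 150.4, 154 and 154 in the combination libraries. Its lowest libraries were those of the SGI-1027 group, and its log2 fold change was -0.31 ± 0.037 (SE) for everolimus, -0.47 ± 0.038 for SGI-1027 and -0.35 ± 0.037 for both drugs. The other checkpoint genes, the kinases BUB1 and TTK with BUB1B and MAD2L1, lay between -0.98 and -0.55 in the combination group, and TTK at -0.13 ± 0.045 with everolimus was the smallest change of these 9 that passed the test, a call lost in 4 of the 20 alternatives that keep the adjusted p threshold. PTTG1, securin, which holds back separase, changed by -1.07 ± 0.042 with the combination, UBE2C, the ubiquitin-conjugating enzyme of the APC/C, by -0.67 ± 0.052, and SGO1, shugoshin, which protects centromeric cohesin, by -0.64 ± 0.08. Reads of PTTG1 could be shared with its intronless copy PTTG2, which had 0 to 4 counts per library.

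Centromere and kinetochore genes were divided in their response to everolimus. Of 6 genes, everolimus lowered 4, and SGI-1027 and the combination lowered 6, with medians of -0.36 for everolimus, -0.80 for SGI-1027 and -0.89 for both drugs. CENPE, a kinesin that carries chromosomes along spindle microtubules, changed most in the combination group, while CENPA changed most with either single drug. The CPM of CENPE was 74.5, 89.9 and 87.7 in the DMSO libraries, 63.8, 65.9 and 65.8 in the everolimus libraries, 48.6, 44.6 and 45.3 in the SGI-1027 libraries and 43.5, 40.2 and 34.8 in the combination libraries. DMSO replicate 1 and combination replicate 3 were the lowest of their groups, and the change was -0.37 ± 0.072 (SE) for everolimus, -0.86 ± 0.073 for SGI-1027 and -1.09 ± 0.074 for both drugs. CENPF, a large outer kinetochore protein, had a CPM of 326, 368 and 372 in the DMSO libraries, 363, 376 and 398 in the everolimus libraries, 281, 277 and 276 in the SGI-1027 libraries and 256, 265 and 264 in the combination libraries. Its everolimus libraries overlapped those of DMSO, at 0.091 ± 0.046 (adjusted p = 0.101, edgeR), and its SGI-1027 and combination libraries lay below both, at -0.35 ± 0.046 and -0.44 ± 0.046. CENPA, the histone H3 variant that marks centromeres, fell by 52.2% with the combination. NDC80, NUF2 and SPC25, subunits of the complex that binds microtubule ends, fell by 48.3%, 43.5% and 29.7%, and SPC25 was at -0.15 ± 0.072 with everolimus (adjusted p = 0.0864, edgeR).

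In the combination group the kinesins spanned the widest range of log2 fold changes of any of these groups of genes. Everolimus lowered 6 of 8, and SGI-1027 and the combination lowered 8, with medians of -0.41 for everolimus, -0.79 for SGI-1027 and -0.90 for both drugs. KIF20A, a motor that carries the passenger complex to the central spindle, had the largest fall of all 57 genes in the combination group. Its CPM was 279, 280.2 and 275 in the DMSO libraries, 209, 208 and 212 in the everolimus libraries, 115, 124 and 120.2 in the SGI-1027 libraries and 88.6, 85.4 and 86.3 in the combination libraries. The libraries of each group were close together and apart from the next group, and KIF20A fell by 24.8% for everolimus, 57.0% for SGI-1027 and 68.8% for both drugs (edgeR, adjusted p = 3.40e-08, 1.80e-14 and 2.59e-16). KIF18A, a motor that aligns chromosomes at the metaphase plate, changed least, with a CPM of 33.9, 39.0 and 36.8 in the DMSO libraries, 32.4, 35.2 and 34.1 in the everolimus libraries, 32.6, 32.3 and 28.0 in the SGI-1027 libraries and 29.1, 29.1 and 28.6 in the combination libraries. Its everolimus libraries overlapped those of DMSO and of SGI-1027, the SGI-1027 libraries overlapped those of the combination, and both of the latter groups lay below DMSO, and the change was -0.11 ± 0.065 (SE) for everolimus, -0.24 ± 0.066 for SGI-1027 and -0.34 ± 0.066 for both drugs, the first of which did not pass the test (adjusted p = 0.156, edgeR). KIF2C, a microtubule depolymerase, KIF4A, a chromokinesin, KIF23, the motor of centralspindlin, and KIF11 (Eg5), which pushes the spindle poles apart, changed by -0.99 ± 0.039, -1.04 ± 0.039, -0.97 ± 0.043 and -0.83 ± 0.055 with the combination. KIF14 and KIF20B, motors of cytokinesis, changed by -0.55 ± 0.058 and -0.73 ± 0.054, and KIF14 was at -0.13 ± 0.057 with everolimus (adjusted p = 0.054, edgeR). KIF4A has a near-identical intronless copy, KIF4B, with 51 to 151 counts per library, and how the authors' counting divided their reads is not known.

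Proteins of spindle microtubules held both a strong fall and the single gene that everolimus raised. Of these 9 genes everolimus lowered 7 and raised 1, SGI-1027 lowered 8, and the combination lowered 9, with medians of -0.43 for everolimus, -0.86 for SGI-1027 and -1.01 for both drugs. FAM83D, which brings a kinase and a kinesin to the spindle, changed most in the combination group, with a CPM of 133, 137 and 133 in the DMSO libraries, 89.0, 91.7 and 90.2 in the everolimus libraries, 63.3, 65.9 and 63.7 in the SGI-1027 libraries and 57.1, 56.4 and 57.6 in the combination libraries. It fell by 32.8%, 52.1% and 57.5%, with no overlap between groups. HMMR, a spindle pole protein, went the other way with everolimus. Its CPM was 49.9, 49.5 and 56.0 in the DMSO libraries, 58.5, 61.7 and 60.1 in the everolimus libraries, 49.7, 46.7 and 48.2 in the SGI-1027 libraries and 41.1, 42.4 and 42.9 in the combination libraries. The everolimus libraries lay above all others, the SGI-1027 libraries overlapped DMSO, and the combination libraries were the lowest, giving log2 fold changes of 0.22 ± 0.052 (SE) for everolimus, -0.10 ± 0.053 for SGI-1027 and -0.30 ± 0.053 for both drugs (edgeR, adjusted p = 0.00186, 0.0991 and 8.07e-05). NUSAP1, which bundles and anchors spindle microtubules, had a CPM of 186, 194 and 187 in the DMSO libraries, 161, 166 and 164 in the everolimus libraries, 125, 122 and 121 in the SGI-1027 libraries and 101, 101 and 94.1 in the combination libraries. DLGAP5 (HURP), a protein of kinetochore fibres, had a CPM of 116, 131 and 126 in the DMSO libraries, 89.5, 93.2 and 94.2 in the everolimus libraries, 67.3, 69.1 and 62.7 in the SGI-1027 libraries and 56.6, 56.5 and 53.7 in the combination libraries. In both, the combination libraries lay below all other libraries, at -0.94 ± 0.039 and -1.16 ± 0.051 against DMSO. TPX2, the activator of AURKA, SPAG5 (astrin), GTSE1, a microtubule plus-end protein, and TACC3, a bridging protein of kinetochore fibres, fell by 51.5%, 53.6%, 50.3% and 38.3% with the combination. CKAP2, another spindle protein, fell by 32.5% and was at -0.065 ± 0.043 with everolimus (adjusted p = 0.212, edgeR).

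The 3 genes of the spindle midzone and cytokinesis were lower in each treated group and close to each other in size. PRC1, which bundles antiparallel microtubules, had a CPM of 324, 334 and 333 in the DMSO libraries, 243, 242 and 238 in the everolimus libraries, 191, 194 and 194 in the SGI-1027 libraries and 173, 176 and 179.6 in the combination libraries. ECT2, the exchange factor that activates RHOA at the cleavage site, had a CPM of 186, 201 and 208 in the DMSO libraries, 146, 154 and 147 in the everolimus libraries, 131, 129 and 125 in the SGI-1027 libraries and 114, 112 and 112 in the combination libraries. No groups overlapped in either gene, and with the combination PRC1 fell by 46.7%, ECT2 by 43.1% and RACGAP1, a subunit of centralspindlin, by 44.1%.

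Condensin and other proteins of mitotic chromosomes responded unequally to everolimus, which lowered 6 of 7, while SGI-1027 and the combination lowered 7, with medians of -0.37 for everolimus, -0.77 for SGI-1027 and -0.91 for both drugs. NCAPH, a condensin I subunit, had the lowest log2 fold change of the 57 genes with everolimus. Its CPM was 89.7, 93.7 and 93.0 in the DMSO libraries, 49.9, 53.8 and 49.1 in the everolimus libraries, 45.2, 44.4 and 44.5 in the SGI-1027 libraries and 42.4, 45.6 and 44.2 in the combination libraries. The SGI-1027 and combination libraries overlapped, and the change was -0.85 ± 0.047 (SE) for everolimus, -1.04 ± 0.047 for SGI-1027 and -1.06 ± 0.047 for both drugs. NCAPG, which belongs to the same complex, changed least of the 7 in the combination group, with a CPM of 99.4, 106 and 108 in the DMSO libraries, 90.1, 93.0 and 94.2 in the everolimus libraries, 81.7, 77.6 and 72.6 in the SGI-1027 libraries and 78.2, 76.6 and 74.5 in the combination libraries. Its SGI-1027 and combination libraries overlapped. NCAPH fell by 44.7% and NCAPG by 11.4% with everolimus, and by 52.2% and 26.8% with the combination, while NCAPD2, the third non-SMC subunit, fell by 22.7% and 51.5%. TOP2A, the topoisomerase that untangles chromosomes, had a CPM of 407, 458 and 449.5 in the DMSO libraries, 405, 412 and 412 in the everolimus libraries, 305, 319 and 290.0 in the SGI-1027 libraries and 286, 274 and 271 in the combination libraries. Its everolimus libraries overlapped the lowest DMSO library, at -0.10 ± 0.045 (adjusted p = 0.0788, edgeR), and it changed by -0.52 ± 0.045 with SGI-1027 and -0.66 ± 0.045 with the combination. MKI67, which encodes the proliferation marker Ki-67, had a CPM of 862, 885 and 864 in the DMSO libraries, 605, 632 and 653 in the everolimus libraries, 490.2, 495 and 542 in the SGI-1027 libraries and 457, 464 and 469.6 in the combination libraries. The groups did not overlap, and it fell by 27.6%, 41.5% and 46.7%. SMC4, the condensin ATPase, and CDCA2 (Repo-Man), a phosphatase subunit on chromatin, fell by 38.1% and 51.7% with the combination. FOXM1, the transcription factor of many G2 and mitosis genes, had a CPM of 302, 279 and 276 in the DMSO libraries, 196, 199 and 194 in the everolimus libraries, 153, 159 and 178 in the SGI-1027 libraries and 156, 156 and 166 in the combination libraries. The SGI-1027 and combination libraries overlapped, and the log2 fold change of FOXM1 was -0.54 ± 0.051 (SE) for everolimus, -0.81 ± 0.051 for SGI-1027 and -0.84 ± 0.051 for both drugs (edgeR, adjusted p = 7.32e-08, 2.54e-10 and 9.52e-11).

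On the FPKM scale, which allows levels of different genes to be set side by side, the highest of the 57 in the DMSO group were CDC20 at 298 ± 2.06 (SD, n = 3), followed by CKS2, PTTG1 at 156 ± 0.670, PLK1 at 143 ± 9.55 and TPX2 at 129 ± 1.59. The lowest were SGO1 at 3.34 ± 0.262, KIF14 at 5.65 ± 0.285 and KIF20B at 8.61 ± 0.462.

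Added to everolimus, SGI-1027 lowered nearly all of the mitotic genes further. If everolimus alone was given at 10 µM, as the protocol has it, this comparison also holds a difference in dose. Compared to the everolimus group, the combination group was lower for 56 of 57 genes and higher for 0, with 19.2% and 20.1% of all genes called in these directions, and the median log2 fold change was -0.50. The falls were largest for KIF20A (-1.27 ± 0.037), CCNB2 (-0.76 ± 0.043) and DLGAP5 (-0.73 ± 0.051), with edgeR adjusted p = 2.42e-14, 1.24e-10 and 2.04e-09. All 57 log2 fold changes were below 0. BUB3 was the gene that did not pass, with a difference of -0.046 ± 0.038 and a 95% interval of -0.13 to 0.033 (adjusted p = 0.355). AURKB passed narrowly at -0.13 ± 0.048 (adjusted p = 0.039), and lost that call in 10 of 20 alternatives. At the study's cut-off 1 gene, KIF20A, was lower, against 1.46% of all genes, and 0 were higher, against 2.44%.

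Added to SGI-1027, everolimus lowered some of the listed mitotic genes further and left most within the spread of the libraries. The combination group was lower than the SGI-1027 group for 21 genes (36.8%) and higher for 2 (3.51%), with 10.2% and 9.4% of all genes called, the median was -0.10, and 34 genes did not pass. KIF20A (-0.46 ± 0.038, adjusted p = 7.96e-08), NUSAP1 (-0.31 ± 0.039, 1.21e-05) and DLGAP5 (-0.25 ± 0.052, 0.00166) had the lowest log2 fold changes (edgeR). Others among the 21 included the kinases PLK1, AURKA and CDK1, BIRC5, CDC20 and TPX2, at -0.24 to -0.15. Spindle microtubule proteins made up 6 of the 21 (CKAP2, DLGAP5, FAM83D, HMMR, NUSAP1 and TPX2), and those not yet named were BUB1B, PTTG1, CENPE, KIF4A, PRC1, ECT2, NCAPD2, TOP2A and MKI67. AURKB and BUB3 were the 2 genes higher with the combination than with SGI-1027, by 0.20 ± 0.049 (adjusted p = 0.00765, edgeR) and 0.12 ± 0.038 (0.0327), the latter call being lost in 7 of 20 alternatives. Of the 34 others, CCNB1 differed by -0.13 ± 0.057 (95% interval -0.25 to -0.011), FOXM1 by -0.036 ± 0.052 (-0.14 to 0.073), NCAPH by -0.021 ± 0.048 (-0.12 to 0.08) and UBE2C by 0.018 ± 0.052 (-0.092 to 0.13), and the intervals of the last 3 include 0. The count of 21 lower genes was 13 without combination replicate 2, 14 without combination replicate 3, 16 without SGI-1027 replicate 2, and 23 without DMSO replicate 1 or SGI-1027 replicate 3. The count of 2 higher was 1 without SGI-1027 replicate 1, 2 or 3 or without combination replicate 2 or 3. CKAP2, CENPE and TOP2A lost their call in 12, 11 and 11 of 20 alternatives. The study's cut-off called 0 genes in either direction, against 1.21% of all genes lower and 0.428% higher. This comparison and the one before it share the combination libraries. The 36.8% lower holds for a list of genes chosen with earlier results of these data known. Of the 58 further mitotic genes, 10.3% were lower and 12.1% higher with the combination than with SGI-1027. The excess of lower genes is therefore not extended to mitotic genes in general.

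**Figure D4:**
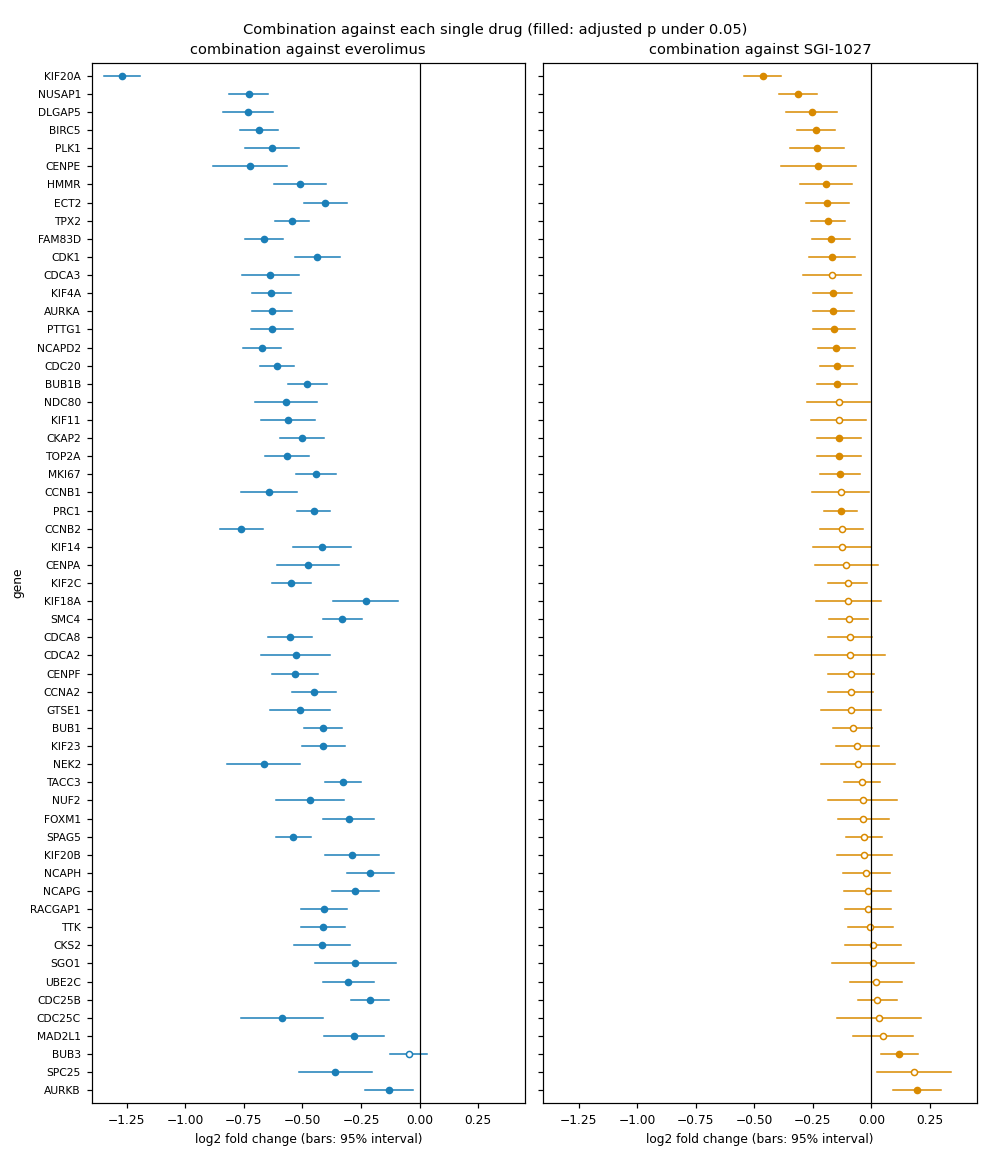
Points give the log2 fold change of each of the 57 genes in the combination group against the everolimus group (left) and the SGI-1027 group (right), bars the 95% interval, and filled points an adjusted p under 0.05. On the left 56 points are filled and lie below 0, and on the right 21 filled points lie below 0 and 2, AURKB and BUB3, above it.

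The interaction contrast asked whether the combination changed each gene by the sum of the single-drug changes on the log2 scale. It takes the everolimus dose to be the same alone and in the combination, on which the records differ. For 40 genes the combination level was higher than that sum and for 2 it was lower, with 23.6% and 22.1% of all genes called in these directions, and the median was 0.33. PLK1 gives an example: the single-drug changes were -0.82 and -1.22, the combination change was -1.45, and the interaction was 0.59 ± 0.077 (edgeR, adjusted p = 7.20e-06). The highest values were those of NCAPH (0.83 ± 0.067), AURKB (0.68 ± 0.068) and CDCA8 (0.63 ± 0.062). HMMR (-0.41 ± 0.074, adjusted p = 2.19e-04) and CENPF (-0.18 ± 0.066, 0.0324) were the 2 genes lower than the sum, and CENPF lost that call in 9 of 19 alternatives, among them omission of DMSO replicate 1, everolimus replicate 2 or 3, SGI-1027 replicate 1 or 2, or combination replicate 1 or 2. The count above the sum was 43 without DMSO replicate 1 and 39 without SGI-1027 replicate 3. KIF20A was close to the sum, at -0.054 ± 0.053 with a 95% interval of -0.16 to 0.057, as was CCNB2 at 0.087 ± 0.061 (-0.041 to 0.22). By role, the median interaction was highest for the Aurora, Polo and passenger complex genes, at 0.61, and lowest for the kinesins, at 0.19. At the study's cut-off 0 genes were called in either direction, against 4.63% of all genes lower and 1.14% higher.

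Other cell-cycle genes were described beside the 57. Of all tested genes, 29.2% were lower and 27.2% higher with everolimus, 30.6% and 32% with SGI-1027, and 33.4% and 32.8% with the combination. Of a list of 58 further mitotic genes, 49 were lower and 1 higher with everolimus, 51 and 1 with SGI-1027, and 50 and 2 with the combination, at medians of -0.35 for everolimus, -0.67 for SGI-1027 and -0.63 for both drugs. Compared to everolimus, the combination lowered 39 (67.2%) and raised 5 (8.62%) of these 58, at a median of -0.27. Of all genes, 19.2% were lower and 20.1% higher in that comparison. Compared to SGI-1027, the combination lowered 6 (10.3%) and raised 7 (12.1%), at a median of -0.017. These shares were near the 10.2% and 9.4% of all genes called. ANLN, anillin of the cleavage furrow, PRR11 and PSRC1 had the smallest p values of that list in the combination group, at -1.05, -0.94 and -1.39. Of 44 genes of DNA replication and S phase, everolimus lowered 40, SGI-1027 41 and the combination 33 (1 higher), at medians of -0.47 for everolimus, -0.45 for SGI-1027 and -0.37 for both drugs. The combination median was not the lowest of the 3 in either list. In the interaction, 43 of the 58 (74.1%) and 39 of the 44 (88.6%) were above the sum of the single-drug changes. None was called below it, and the medians were 0.37 and 0.55. Among the 57 mitotic genes 70.2% were above the sum, at a median of 0.33, and 23.6% of all genes were. Compared to everolimus, the combination lowered 5 (11.4%) and raised 21 (47.7%) of the replication and S phase genes, at a median of 0.16. It lowered 56 (98.2%) and raised 0 of the 57 mitotic genes in that comparison. TYMS (thymidylate synthase), RRM2 (ribonucleotide reductase) and UHRF1, a partner of DNMT1 at replicated DNA, changed by -1.01, -0.80 and -0.62 with the combination against DMSO, and by -0.47, -0.21 and 0.035 against everolimus, the last of which did not pass the test (adjusted p = 0.547, edgeR).

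**Figure D5:**
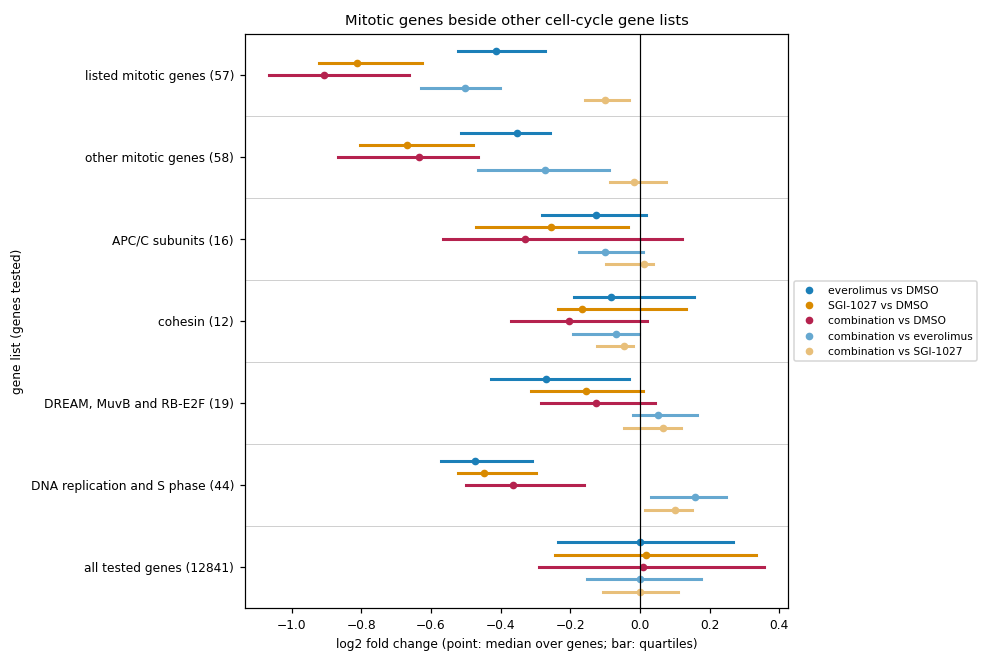
Points give the median and bars the quartiles of the log2 fold changes of each gene list in 5 comparisons, with the number of genes tested in brackets. For combination against everolimus the median was -0.50 over the 57 mitotic genes and 0.16 over the DNA replication and S phase genes.

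The regulators of these programmes were mixed. Of 19 genes of the DREAM, MuvB and RB-E2F complexes, the combination lowered 9 (47.4%) and raised 3 (15.8%), where 33.4% of all genes were lower and 32.8% higher, at a median of -0.13. MYBL2, which encodes B-MYB, the activating partner of MuvB, changed by -0.95 for everolimus, -0.94 for SGI-1027 and -1.24 for both drugs (edgeR, adjusted p = 4.23e-10, 2.56e-10 and 4.14e-12). E2F8 and E2F7 both encode atypical repressor E2Fs. E2F8 changed by -1.15 with the combination, whereas E2F7 was lower with everolimus, at -0.27, and higher with the combination, at 0.83 (edgeR, adjusted p = 7.72e-04 and 5.57e-10). Of the 16 APC/C subunits and regulators, the combination lowered 10 (62.5%) and raised 2 (12.5%), with ANAPC1 at -0.74, FBXO5 (EMI1, an APC/C inhibitor) at -0.61 and CDC27 at -0.48. Of 12 cohesin genes it lowered 7 (58.3%) and raised 3 (25%), with SMC1A at -0.44, RAD21 at -0.36 and STAG1 at -0.40. Medians of these lists were -0.33 and -0.20, compared to -0.91 for the 57 mitotic genes.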

How the data were processed

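RNA was sequenced from 12 libraries of 786-O cells, 3 per group. The authors deposited raw counts per gene symbol, which are whole numbers and not normalized, and FPKM values, which they scaled by gene length and library size. The aligner, the counting program and whether strand was used are not given in the sources used here. The submitters' processing notes name GRCm38 and mm10, which are mouse builds, so genes are given by symbol and no gene coordinates were taken from them. Extraction and library kits differ between the methods of the study (TRIzol, TruSeq Stranded mRNA LT) and the sample records (RNeasy, SMARTER).

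The count table was tested with edgeR 4.0.16 (R 4.3.3). Genes were filtered with filterByExpr over the 4 groups (4244 of 17085 genes were not tested), scaled with TMM factors, and fitted in 1 quasi-likelihood model of all 12 libraries with 8 residual degrees of freedom (prior count 0.125), so the groups share 1 estimate of the spread. Contrasts were each treated group against DMSO, the combination against each single drug, and the interaction (combination minus everolimus minus SGI-1027 plus DMSO). Genes were called at an adjusted p under 0.05 (Benjamini-Hochberg over the 12841 tested genes), and 95% intervals are unadjusted. CPM values use TMM-scaled library sizes. Libraries had 37046231 to 41516976 counts. DESeq2 1.42.0 and limma 3.58.1 served as alternatives, and the procedure was tested on simulated data.

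The 57 genes, their 9 groups by role and the 5 further lists were chosen with earlier results of these data known. They are described by counts and medians, with no test of a list, and the alternatives are given at the end. A gene of the further lists, CASC5, was not in the tables under that symbol. By rule, every gene is named, and values in every library are given for the genes with the largest and smallest absolute log2 fold change against DMSO in each group of genes in the combination, the 3 highest and 3 lowest called genes by log2 fold change of each of the 6 contrasts, and MKI67, TOP2A, CCNB1, CDK1, PLK1, AURKB and FOXM1. For each further list, the 3 genes with the smallest p in the combination are named, as is any gene called in opposite directions against DMSO. Promoter motifs were searched in RefSeq windows as a description without a test.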

Additional observations from a re-analysis of the deposited data

Results flagged for a closer look

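The effect of SGI-1027 differed between cells with and without everolimus for 42 of the 57 mitotic genes, by edgeR's test of the interaction itself (adjusted p under 0.05). Of all 12841 tested genes, 23.6% were called higher and 22.1% lower by the same test. Values are the log2 fold change of the combination minus the sum of the single-drug changes. Among the cyclins and CDK1 regulators the positive values were CCNA2 0.52, CCNB1 0.51, CDC25B 0.20, CKS2 0.47 and CDCA3 0.42. Among the Aurora, Polo and passenger complex genes they were AURKA 0.62, AURKB 0.68, PLK1 0.59, BIRC5 0.29 and CDCA8 0.63. Checkpoint, APC/C and cohesion genes gave BUB1 0.49, BUB1B 0.35, BUB3 0.43, MAD2L1 0.43, CDC20 0.60, UBE2C 0.38, PTTG1 0.28 and SGO1 0.37. Centromere and kinetochore genes gave CENPA 0.48, NDC80 0.24, NUF2 0.32 and SPC25 0.33, and kinesins KIF2C 0.35, KIF4A 0.24, KIF20B 0.42 and KIF23 0.49. Spindle microtubule proteins gave FAM83D 0.40, GTSE1 0.41, SPAG5 0.54, TACC3 0.33 and TPX2 0.31, the midzone genes PRC1 0.32, ECT2 0.22 and RACGAP1 0.41, the chromosome proteins NCAPD2 0.22, NCAPH 0.83, SMC4 0.27, MKI67 0.33 and CDCA2 0.43, and FOXM1 0.50. Negative values were those of CENPF (-0.18) and HMMR (-0.41). Groups of 3 libraries were too small for a test of outlying libraries.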

How the results depend on the processing

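Alternatives were DESeq2, scaling by the upper quartile, testing unfiltered genes or those with 10 or more counts in each library, a replicate block, fits of the compared groups alone, limma-trend on log2(FPKM + 1) and log2(FPKM + 0.1), the study's cut-off, and leaving out each of the 12 libraries. No called change of any mitotic gene turned its direction under these. The counts of 57 lower with the combination and 56 lower with SGI-1027 were the same under every alternative but the study's cut-off. That cut-off gave 0 lower with everolimus, 10 with SGI-1027, 21 with the combination, 1 for combination against everolimus, 0 for combination against SGI-1027, 0 in the interaction, and 0 higher in each comparison. Genes higher with everolimus numbered 2 with DESeq2, at least 10 counts, the replicate block or the compared groups alone, and 3 with upper-quartile normalization (CDC25C joined HMMR in each of these). Those higher in the combination than with SGI-1027 numbered 1 with the replicate block or the compared groups alone, and SPC25 joined AURKB and BUB3 with log2(FPKM + 0.1). Of those lower in that comparison, CENPE, CKAP2, TOP2A and MKI67 lost their call in both FPKM fits and with the compared groups alone. BUB1B also lost its call with the compared groups alone. In the interaction, upper-quartile normalization gave 35 higher and 3 lower (NUSAP1 joined), and either FPKM fit 44 higher and 1 lower.

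Leaving out libraries gave 47 to 53 genes lower and 1 to 3 higher with everolimus, 54 to 56 lower for combination against everolimus, 13 to 23 lower and 1 to 2 higher for combination against SGI-1027, and 39 to 43 higher and 1 to 2 lower in the interaction. The count higher with everolimus was 3 without DMSO replicate 3, and 2 without everolimus replicate 1, SGI-1027 replicate 2 or SGI-1027 replicate 3. Replicate numbers did not pair libraries: deviations from the group means of same-numbered libraries correlated at -0.176 to 0.036 in 18 pairs. With the replicate block, 48 genes were lower with everolimus, 55 for combination against everolimus, 18 for combination against SGI-1027, and 40 were higher in the interaction.

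Over all genes, lower calls made up 51.8% of calls for everolimus and 48.3% for the interaction, and 39.3% and 60.5% with upper-quartile normalization. For combination against SGI-1027 they made up 52.1%, and 41.6% and 42.5% in the FPKM fits. The causes were not tested. Depth did not limit these genes, with at least 432 counts each, and precision rests on 3 libraries per group.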
